A study of Mus musculus with 16 samples.

Results

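Circular RNAs (circRNAs) arising from genes of the extracellular matrix, of its receptors and of the ADAM families of proteases were followed through injury and drug treatment of the mouse heart. The genes were chosen by name from the deposited circRNA count table: collagens (Col followed by a digit), laminin chains (Lama, Lamb, Lamc), integrin-named genes (Itga, Itgb), all genes beginning with Adam, fibrillins (Fbn), latent TGF-beta binding proteins (Ltbp) and Sparc, with Itgb3 and Itga1 left out. This gave 91 of the 8610 host genes listed. A count was found for 81 of them, in 657 circRNAs, and the other 10, among them Adam15, Col18a1, Itga3 and Ltbp3, were listed at 0 in all 16 libraries.

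The hearts came from male C57BL/6 mice in 4 groups of 8. Sham animals were the blank controls (3 libraries). In the other groups the left anterior descending coronary artery was tied for 30 min and the heart was reperfused for 1 week: MIRI without a further agent (3 libraries), MIRI+Compound C, an inhibitor of AMP-activated protein kinase (AMPK) (5 libraries), and MIRI+AICAR, an activator of AMPK (5 libraries). The labels give neither a dose of either agent nor the way 32 mice became 16 libraries, and none states that each replicate is a different mouse. A p-value here therefore reflects how much these libraries vary, and that variation may be technical.

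The extracellular matrix of the heart holds muscle cells and vessels in place. Fibrillar collagens carry tension, network collagens and laminins form the basement membrane around each muscle cell, and fibrillins and latent TGF-beta binding proteins form microfibrils that store TGF-beta, a growth factor of scar formation. Integrins, pairs of an alpha and a beta chain, anchor cells to this matrix, while membrane-bound ADAM proteases shed surface proteins and secreted ADAMTS proteases cut matrix proteins. A circRNA forms when the end of an exon is spliced back to the start of the same or an earlier exon. A read across that back-splice junction shows an order that the linear transcript does not have.

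The junctions that carry the results were these, 20 bases on each side, from the annotated exons in GENCODE M21 transcripts (GRCm38), 5′ to 3′ on the strand of the gene, with the 5 bases on each side of the back-splice in capitals. The first 4 belong to genes that were called in a comparison (adjusted p under 0.05) and the others to the most abundant circle of an abundant gene. Each is named by its exons in the transcript used.
Ltbp1 exons 6 to 7: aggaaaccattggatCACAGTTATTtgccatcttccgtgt
Adam10 exons 2 to 4: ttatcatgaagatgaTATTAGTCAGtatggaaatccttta
Adam10 exons 5 to 8: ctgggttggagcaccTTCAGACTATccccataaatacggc
Itga8 exons 7 to 11: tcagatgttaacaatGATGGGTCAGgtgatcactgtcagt
Adam9 exons 12 to 14: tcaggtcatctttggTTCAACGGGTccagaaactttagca
Adamts6 exons 11 to 14: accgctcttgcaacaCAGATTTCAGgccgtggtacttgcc
Itga9 exons 2 to 4: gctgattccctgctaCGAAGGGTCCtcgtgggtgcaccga
Lama2 exons 18 to 22: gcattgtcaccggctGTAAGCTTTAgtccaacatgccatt
In each line the letters before the middle of the capitals are the end of the last exon, and those after it are the start of the first exon, an order that the linear transcript does not have. The circles lie at chr17:75225156-75227241 (Ltbp1), chr9:70703287-70722771 and chr9:70740075-70748266 (Adam10), chr2:12242411-12253578 (Itga8), chr8:24978428-24982122 (Adam9), chr13:104375642-104400006 (Adamts6), chr9:118626448-118636626 (Itga9) and chr10:27197298-27224069 (Lama2). All 8 consist of coding exons inside these genes.

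Library totals ran from 119948 to 240889 back-splice counts. The table holds no count of 1 and its smallest count above 0 is 2, so a gene listed at 0 can have had single reads; levels at 0 are therefore given as listed, with no fold against them. Values are CPM (each count divided by the library's TMM-scaled total, given per 1000000) of a host gene's summed circRNAs; a back-splice read is counted at a junction, so no length enters. The libraries stand in the order of replicates 1 to 3 or 1 to 5 wherever values are listed. The label names cardiac muscle cells, but no sort is described. Summed over the markers that passed the filter on low counts, circRNA levels of cardiomyocyte markers (6 of 8) were 13047 to 21976 CPM, of endothelial markers (5 of 9) 1739 to 4268 CPM and of leukocyte markers (8 of 10) 1735 to 4209 CPM. Of 10 fibroblast markers only Dcn passed the filter, at 16.6 to 85.8 CPM, and Lum, Postn, Tcf21 and Fap were at 0 or not listed. A pair of libraries stood apart by the sum of Itgb3 and Med12l, the 2 of 9 listed platelet markers that passed the filter, both put on the list with their values known. It was 4392 CPM in MIRI replicate 1 and 1395 CPM in MIRI+AICAR replicate 5, against 204 to 495 CPM in the other 14, although Pf4, Ppbp, Gp9, Gp1ba, Gp1bb and Tubb1 were at 0 or not listed. In whole tissue, fewer cells of a type and less RNA per cell cannot be told apart.

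The 91 genes held 16028 back-splice counts, 0.581% of all counts, and the 12 most abundant genes held 68.5% of these. ADAMTS proteases gave 21.8% of the counts, latent TGF-beta binding proteins 18.3%, ADAM proteases 16.5%, laminin chains 11.3% and integrin alpha chains 10.2%. Fibrillar collagens, whose linear transcripts are prominent in scar tissue, gave 5.62%, and fibrillins 1.37%. Over the groups, the share of all counts was 0.516% ± 0.0549 (SD, n = 3) in Sham, 0.597% ± 0.0551 (n = 3) in MIRI, 0.534% ± 0.0222 (n = 5) with Compound C and 0.634% ± 0.0471 (n = 5) with AICAR. The MIRI+AICAR libraries, with the highest totals, also showed the most circRNAs of these genes, 209 ± 27.5 (n = 5) against 129 ± 20 (n = 3) in Sham, or 1.37% ± 0.0896 against 1.08% ± 0.0967 of all circRNAs detected. No test was made of these shares, because the genes were chosen with earlier results known.

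Ltbp1, which ties latent TGF-beta to the matrix, was the most abundant host gene, with 13.1% of the counts: 730.1, 837 and 644 CPM in Sham, 1719, 790.4 and 831 in MIRI, 613, 592, 570.3, 641 and 579 with Compound C and 772, 878, 770.1, 887 and 821 with AICAR. All but MIRI replicate 1 lay between 570.3 and 887 CPM. Its relative Ltbp4, which also takes part in elastic fibre assembly, stood at 395, 313 and 465 CPM in Sham, 209.8, 347 and 243 in MIRI, 394, 293, 221, 365 and 351 with Compound C and 304, 81.4, 229.7, 302 and 268 with AICAR. The groups of Ltbp4 overlapped in all 4 comparisons.

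Among the secreted proteases, Adamts6 was highest, at 344, 639 and 332 CPM in Sham, 413, 557 and 411 in MIRI, 365, 575, 443, 478 and 331 with Compound C and 456, 529, 721, 612 and 628 with AICAR. Adamts9, which cleaves versican, stood at 283, 204 and 383 CPM in Sham, 277, 305 and 428 in MIRI, 430.4, 414, 338, 343 and 379 with Compound C and 265, 331, 302, 323 and 236 with AICAR, so that the 5 MIRI+AICAR libraries all lay below the 5 MIRI+Compound C libraries. Adamts7 ranged from 113 to 255 CPM over the 16 libraries. Among the membrane-bound proteases, Adam9 was highest in the Sham libraries: 387, 408 and 338 CPM in Sham, 467, 365 and 353 in MIRI, 372, 351, 426, 405 and 413 with Compound C and 338, 407, 459, 409 and 381 with AICAR. Its lowest and highest library, 338 and 467 CPM, lay close together. Adam17, which releases TNF from cells, ranged from 68.7 CPM in Sham replicate 1 to 252 CPM in MIRI replicate 2.

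Of the laminin chains, Lama2, the alpha chain of muscle basement membrane, was highest: 387, 394 and 357 CPM in Sham, 298, 377 and 277 in MIRI, 263, 368, 316, 354 and 379 with Compound C and 411, 273, 401, 435 and 354 with AICAR. Lamc1, the gamma chain shared by most laminins, stood at 275, 170.0 and 229.5 CPM in Sham, 203, 168 and 235 in MIRI, 277, 172, 271, 214 and 337 with Compound C and 191, 174, 225, 194 and 161 with AICAR. The integrin with the highest level was Itga9, whose chain pairs with beta 1: 361, 558 and 453 CPM in Sham, 406, 389 and 462 in MIRI, 248, 443, 321, 343 and 358 with Compound C and 434, 337, 315, 457 and 413 with AICAR. Itgb6, a partner of the alpha v chain in activating latent TGF-beta, ranged from 94.5 to 338 CPM in Sham alone, so that Sham covered the range of all other groups. Itgbl1, a secreted protein named for its resemblance to integrin beta chains, ranged from 65.7 to 265 CPM. Levels overlapped between Sham and MIRI for Adamts6, Adamts9, Adamts7, Adam9, Adam17, Lama2, Lamc1, Itga9, Itgb6 and Itgbl1. Those of Adam10, also among the 12 most abundant genes, did not overlap and are given below.

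**Figure D1:**
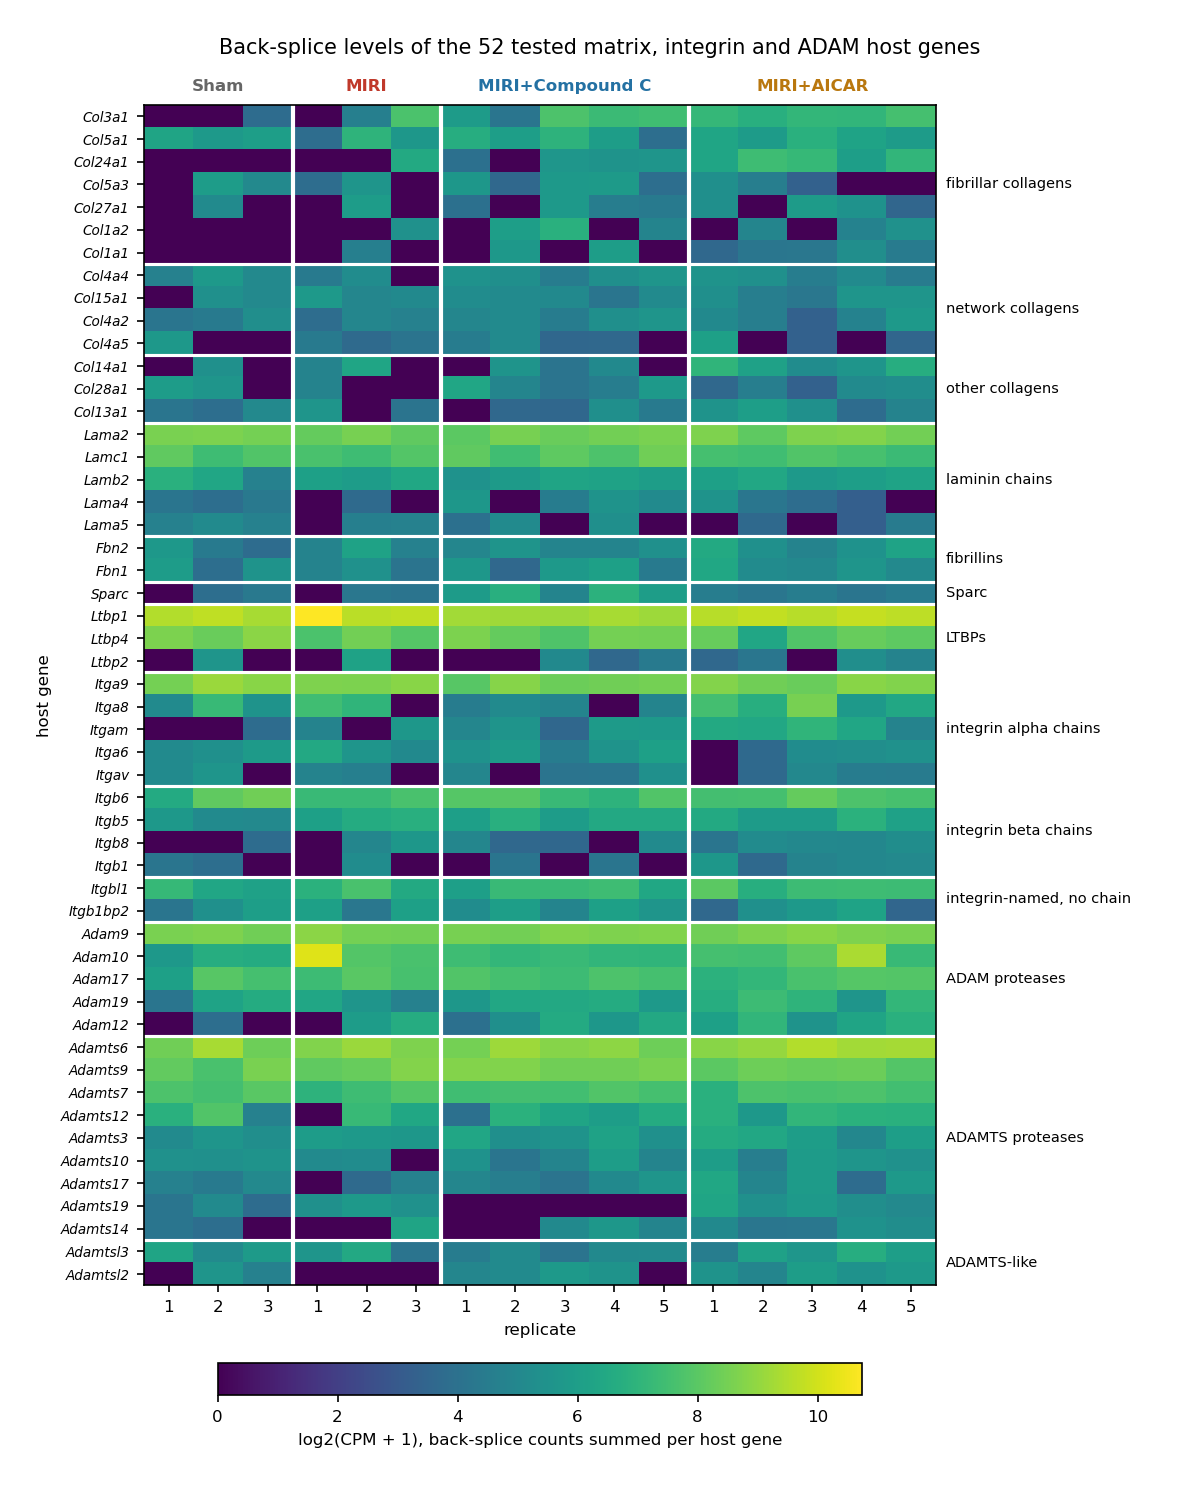
Levels of the 52 tested genes in the 16 libraries, grouped by role: each row is a gene, each column a library, and colour gives log2(CPM + 1) of the summed circRNAs, from dark (listed at 0) to yellow. Ltbp1 is the brightest row in every library, while Col3a1, Col24a1 and Adam12 are at or near 0 in Sham, and Adamts19 is at 0 in all 5 MIRI+Compound C libraries.

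The rarer roles stood lower. Col4a4, a basement membrane collagen, lay between 0 and 54.4 CPM, Fbn2, a fibrillin of elastic microfibrils, between 12.8 and 90.1 CPM, and Adamtsl3 between 16.6 and 103 CPM. Col14a1, which decorates collagen fibrils, was listed at 0 in 5 libraries and stood at 129.5, 69.7, 36, 47.4 and 102 CPM in MIRI+AICAR. None of these 4 was called in any comparison.

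Of the 81 genes with a count, 52 passed the filter on low counts and were tested, as part of 3699 host genes, with edgeR's quasi-likelihood test and Benjamini-Hochberg adjustment over all of them. The other 29 held 39 counts or fewer over all libraries, from Col5a2 with 39, Adamts2 with 35, Itga7 with 31 and Col4a3 with 30 down to 12 genes with 2 to 3 counts in 1 library. The filter can pass a gene through the group in which it is high, so counts among the tested genes do not speak for all 91.

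Injury against Sham asked which circles differ 1 week after ischaemia and reperfusion. Of the 52 tested genes 1 was called, Adam10 (higher), where 0.162% of all tested host genes were called. Adam10 is the protease that releases the Notch receptor's extracellular part and cleaves the amyloid precursor at its alpha site. It stood at 51.5, 102 and 95.6 CPM in Sham, 1177, 234 and 202 in MIRI, 168, 138, 155, 135 and 131 with Compound C and 191, 180.2, 270.2, 676 and 150.2 with AICAR. Every MIRI library lay above every Sham library (log2 fold change 2.66, SE 0.57, adjusted p = 0.0430). The lowest MIRI value, 202 CPM, was above the highest Sham value, 102 CPM, but MIRI replicate 1 at 1177 CPM was far above the other MIRI libraries.

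That value came from the circle of exons 2 to 4 (the second sequence above; 429 bases), which held 129 reads in MIRI replicate 1 and 117 reads in MIRI+AICAR replicate 4 and was listed at 0 in the other 14 libraries. Among 12369 circRNAs with at least 20 reads in all, 18 (0.146%) were found in at most 2 libraries, and this circle had the highest total of them. The sum of Itgb3 and Med12l was 414 CPM in MIRI+AICAR replicate 4, within the range of the libraries that did not stand apart, and highest in MIRI replicate 1. A link between that sum and the circle was not tested. Without this circle, a calculation added after its counts were seen, the Adam10 sum was 304.5, 234 and 202 CPM in MIRI and 172 CPM in MIRI+AICAR replicate 4, and the difference from Sham was a log2 fold change of 1.54 (adjusted p = 0.0193, edgeR). With the circle kept, but without MIRI replicate 1, the log2 fold change was 1.34 and the adjusted p = 0.429. The call was also lost without each Sham library in turn (adjusted p = 0.137 to 0.140).

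Adam10 had 20 circles with a count. After the circle of exons 2 to 4, the most abundant was exons 5 to 8 (the third sequence above), with 4, 6 and 6 reads in Sham, 9, 8 and 4 in MIRI, 4, 5, 9, 6 and 6 with Compound C and 9, 15, 16, 9 and 9 with AICAR. Its groups overlapped throughout (log2 fold change 0.34, SE 0.49, adjusted p = 0.980 for MIRI against Sham, edgeR on single circRNAs). The circle of exons 10 to 14 was listed at 0 in the 3 Sham libraries and held 6, 5 and 4 reads in MIRI (adjusted p = 0.541).

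**Figure D2:**
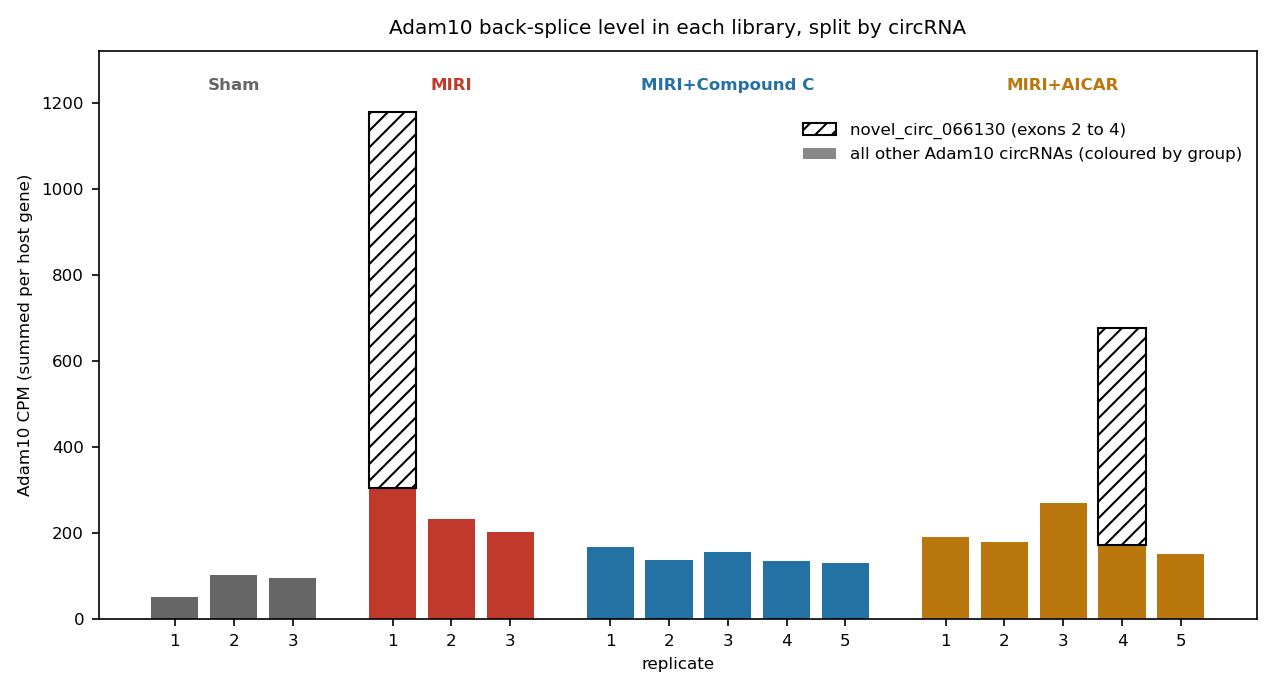
CPM of the summed Adam10 circRNAs in each of the 16 libraries, divided into the circle of exons 2 to 4 and all other Adam10 circles. The circle of exons 2 to 4 appears in MIRI replicate 1 and MIRI+AICAR replicate 4 alone; the other circles sum to 51.5 to 102 CPM in Sham and to 131 to 304.5 CPM in the injured libraries.

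Groups that did not overlap between MIRI and Sham were found for 7 genes. Adam10, Adamts19, Adamts3 and Itgb5 were higher in every MIRI library (5.68% of all host genes did so), and Adamts10, Lama4 and Lama5 were lower (6.22% of all). Adamts3, Itgb5, Adamts10 and Lama5 are named here because of these values. Itgb5, which pairs with alpha v to bind vitronectin, stood at 51.5, 34 and 31.9 CPM in Sham, 67.7, 95.8 and 109 in MIRI, 65.7, 109, 60.9, 89.9 and 89.5 with Compound C and 90.1, 58.1, 58.5, 116 and 69.7 with AICAR (log2 fold change 1.22, SE 0.45, adjusted p = 0.310). Itgb5 and Adam10 were the genes of the 52 whose level was higher in all 13 injured libraries than in the 3 Sham libraries, a pattern held by 0.622% of all tested host genes. Adamts3, a protease that processes procollagen, stood at 34.4, 47.6 and 38.3 CPM in Sham and 60.9, 53.9 and 50.4 CPM in MIRI (adjusted p = 0.889).

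Of the fibrillar collagens, Col3a1, Col24a1, Col1a1 and Col1a2 had at most 2 reads each over the 3 Sham libraries, whereas Col5a1 had 27 reads in Sham and 29 in MIRI, and Col5a3 had 14 and 10. Col3a1, a main collagen of scar and vessel wall, stood at 0, 0 and 12.8 CPM in Sham, 0, 24 and 209.9 in MIRI, 58.4, 17.2, 216, 157 and 172 with Compound C and 141, 110.4, 139.6, 134 and 188 with AICAR. It was listed at 0 in 2 Sham libraries and in MIRI replicate 1, and the test did not pass the threshold (log2 fold change 3.71, SE 1.26, adjusted p = 0.257). Col3a1 circles without both ends on annotated exon boundaries held 131 of its reads. As a share of all counts the fibrillar collagens made up 0.0115% ± 0.0046 (SD, n = 3) in Sham, 0.0241% ± 0.0189 (n = 3) in MIRI, 0.0349% ± 0.0158 (n = 5) with Compound C and 0.0430% ± 0.0049 (n = 5) with AICAR. Col24a1, a rarer fibrillar collagen, was listed at 0 in all Sham libraries and in 2 of 3 MIRI libraries. Col1a1 and Col1a2, the chains of the main scar collagen, named here after their values were seen, were also listed at 0 in all Sham libraries and each had a count in 1 MIRI library. Adam12, a protease of activated mesenchymal cells, stood at 0, 13.6 and 0 CPM in Sham, 0, 59.9 and 101 in MIRI, 14.6, 40.2, 94.1, 50.6 and 89.5 with Compound C and 67.6, 134, 45, 77.5 and 113 with AICAR (log2 fold change 3.25, SE 1.09, adjusted p = 0.251). The fibroblast marker list rests on Dcn alone, whose levels were 34.0 to 76.5 CPM in Sham and 25.2 to 74.4 CPM in MIRI; the part of fibroblast number in these values was not tested.

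The comparison of Compound C with untreated injury asks what differs after injury with the AMPK inhibitor. The counts hold no measure of AMPK activity itself. Ltbp1, Adamts19 and Adam10 were called, all lower with Compound C, which makes 3 of 52 against 0.595% of all tested host genes. Both this comparison and that of MIRI+AICAR with MIRI use the same 3 MIRI libraries, and MIRI replicate 1 is among them.

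Ltbp1 fell to 570.3 to 641 CPM in the 5 MIRI+Compound C libraries, below all 3 MIRI libraries (log2 fold change -0.90, SE 0.18, adjusted p = 0.0139). The 3 Sham libraries began close above, at 644 to 837 CPM, and MIRI+Compound C was not tested against Sham. Without MIRI replicate 1, whose Ltbp1 level was 1719 CPM, the log2 fold change was -0.43 and the adjusted p = 0.478. Leaving out MIRI+Compound C replicate 2 or 3 gave adjusted p = 0.0510 and 0.0517. MIRI replicate 1 also had the highest sum of Itgb3 and Med12l. In MIRI+AICAR replicate 5, the other library that stood apart by that sum, Ltbp1 lay within the range of the other MIRI+AICAR libraries. A link between that sum and Ltbp1 was not tested.

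The reads of Ltbp1 lay on 39 circles. The circle of exons 6 to 7 (the first sequence above) held 829 of 2100 reads: 39, 43 and 30 reads in Sham, 115, 47 and 32 in MIRI, 30, 44, 47, 44 and 36 with Compound C and 50, 60, 69, 84 and 59 with AICAR. Its share of the Ltbp1 reads was 36.8% ± 8.25 (SD, n = 3) in Sham, 37.7% ± 6.73 (n = 3) in MIRI, 41.1% ± 3.92 (n = 5) with Compound C and 39.2% ± 1.72 (n = 5) with AICAR, and the ranges of all groups overlapped. The circle of exons 15 to 20 (chr17:75282328-75296343) held 455 reads, the circle of exons 4 to 5 held 128 and the circle of exon 3 alone (chr17:75065911-75066202) held 106. Ltbp1 has a long transcript that starts at position 75005568 and shorter ones that start at or after 75178810 on chromosome 17. The 7 circles that begin before the shorter starts, and so can come only from the long form among the annotated transcripts, made up 12.2% ± 3.03 (n = 3) of Ltbp1 reads in Sham, 12.9% ± 5.28 (n = 3) in MIRI, 12.8% ± 5.21 (n = 5) with Compound C and 11.9% ± 0.838 (n = 5) with AICAR.

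**Figure D3:**
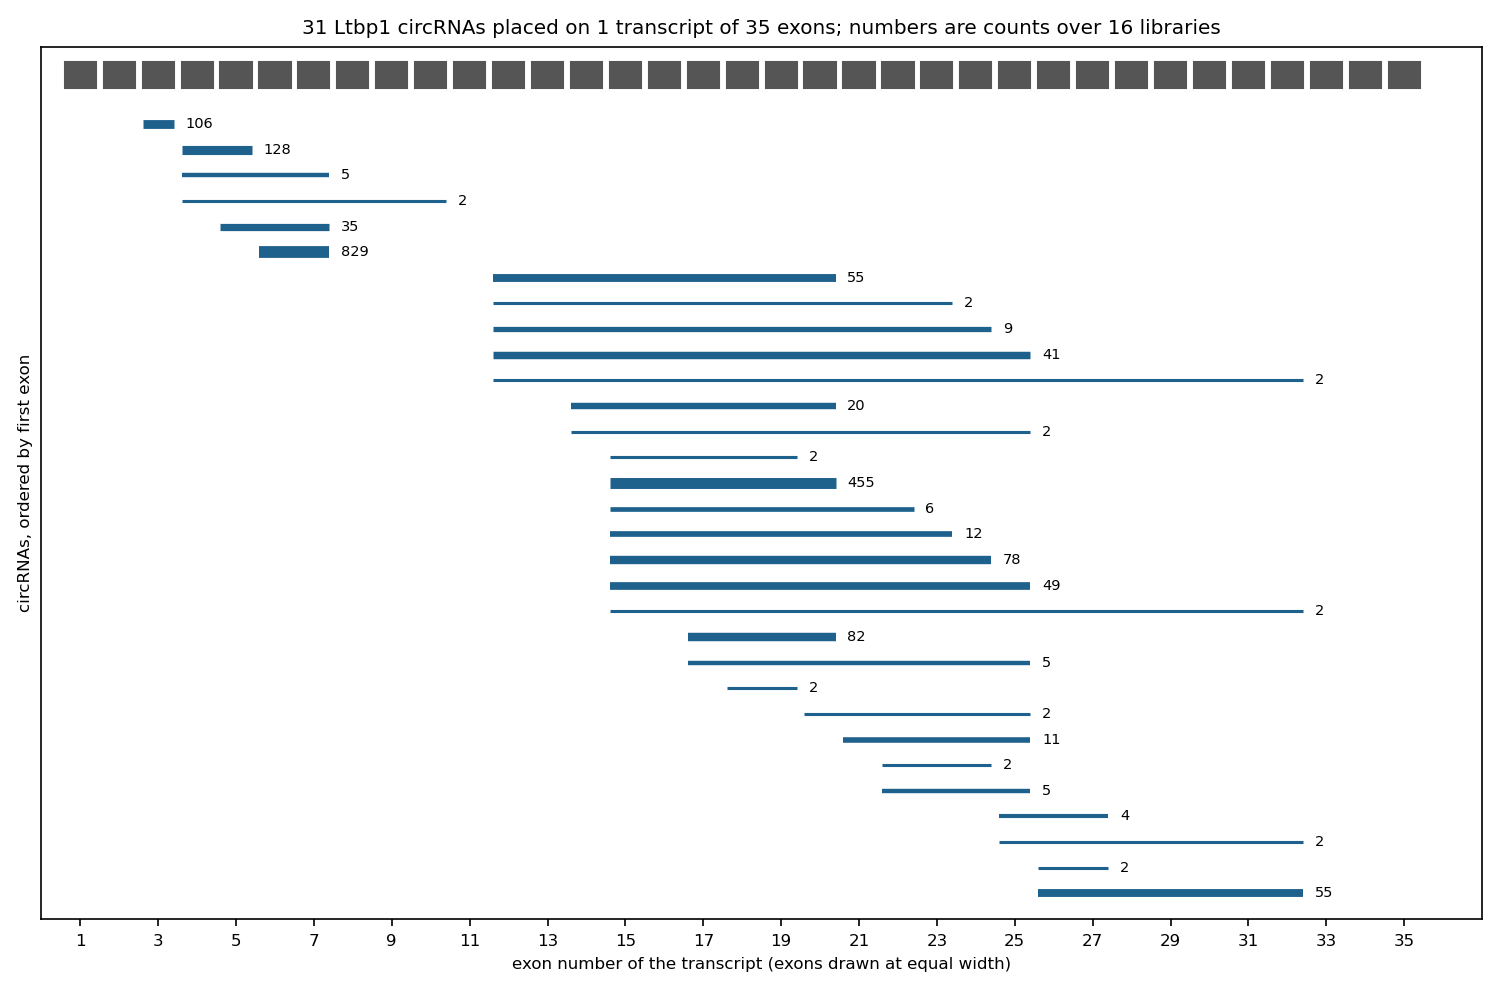
Circles of Ltbp1 along the 35 exons of its longest transcript: exons are drawn at equal width, and each of the 31 bars runs from the first to the last exon of a circle, thicker with more reads, with its reads over 16 libraries printed beside it. The circle of exons 6 to 7 holds the most reads, 829, followed by that of exons 15 to 20 with 455.

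Adamts19, a secreted protease whose loss causes heart valve disease in mice and people, was listed at 0 in all 5 MIRI+Compound C libraries: 17.2, 34 and 12.8 CPM in Sham, 40.6, 53.9 and 42 in MIRI, 0, 0, 0, 0 and 0 with Compound C and 78.8, 40.7, 54, 38.8 and 32.2 with AICAR. It was called lower with Compound C (adjusted p = 0.0128, edgeR), and no fold is given against a group at 0. In reads these are small numbers: 77 over 9 circles, of which the circle of exons 20 to 21 held 0, 0 and 2 reads in Sham, 3, 5 and 3 in MIRI, 0, 0, 0, 0 and 0 with Compound C and 4, 2, 4, 7 and 3 with AICAR. It kept the call without MIRI replicate 1 (adjusted p = 0.0224), and lost it when the 2 groups were fitted alone (adjusted p = 0.105).

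Adam10 was called lower with Compound C (log2 fold change -1.89, SE 0.44, adjusted p = 0.0454), at 131 to 168 CPM against 1177, 234 and 202 CPM. Without MIRI replicate 1 the log2 fold change was -0.59 (adjusted p = 0.878), and without the circle of exons 2 to 4 it was -0.77 (adjusted p = 0.171). It was lost as well without each MIRI+Compound C library in turn (adjusted p = 0.0873 to 0.114).

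Non-overlapping groups in this comparison were these 3 genes on the lower side (2.41% of all host genes) and Sparc on the higher side (3.54% of all). Sparc is a collagen-binding matrix protein. Its level was 0, 13.6 and 19.1 CPM in Sham, 0, 18 and 16.8 in MIRI, 58.4, 109, 27.7, 118 and 62 with Compound C and 22.5, 17.4, 22.5, 17.2 and 21.5 with AICAR. The difference from MIRI was not called (log2 fold change 2.63, SE 0.76, adjusted p = 0.131). The lowest MIRI+Compound C library, at 27.7 CPM, was near the highest MIRI+AICAR library, at 22.5 CPM. Of its 92 reads, 51 came from a circle of 335 bases inside the last exon (chr11:55394791-55395125), beyond the coding sequence, with 0, 0 and 0 reads in Sham, 0, 0 and 0 in MIRI, 3, 9, 5, 14 and 7 with Compound C and 2, 3, 0, 4 and 4 with AICAR. That circle does not use annotated splice sites, as 3 of the 6 Sparc circles do not. Adamtsl2, a microfibril-binding relative of ADAMTS proteases that lacks a protease domain, stood at 0, 47.6 and 25.5 CPM in Sham, 0, 0 and 0 in MIRI, 29.2, 34.5, 55.4, 45 and 0 with Compound C and 45.1, 29.1, 63, 43.1 and 53.7 with AICAR, listed at 0 in all MIRI libraries (adjusted p = 0.121). Col28a1 (log2 fold change 2.03, SE 1.07, adjusted p = 0.610) and Lama4, a laminin chain of vessels (log2 fold change 2.57, SE 1.29, adjusted p = 0.585), were the next on the higher side.

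AICAR against untreated injury, the comparison with the AMPK activator, gave no called gene among the 52 (edgeR's quasi-likelihood test), where 0.0270% of all host genes were called. DESeq2 called none either, and 7 of 52 genes (13.5%) had an unadjusted p under 0.05, against 6.76% of all. The median log2 fold change of the 52 genes was 0.31, with 36 above 0 and 16 below, and that of all 3699 host genes was 0.02. Groups did not overlap for Adamtsl2 on the higher side (2.51% of all) and for no gene on the lower side (2.00% of all). Adamtsl2 was found in all 5 MIRI+AICAR libraries, at 29.1 to 63.0 CPM (adjusted p = 0.366), and all its 86 reads belong to the circle of exons 9 to 12 (chr2:27089584-27098703).

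The other genes with the smallest p on the higher side were Col24a1, Itgam and Adam19. Col24a1 stood at 0, 0 and 0 CPM in Sham, 0, 0 and 92.4 in MIRI, 14.6, 0, 49.8, 45 and 48.2 with Compound C and 78.8, 169, 144, 64.6 and 134 with AICAR (log2 fold change 2.10, SE 0.76, adjusted p = 0.506). Of 15 alternatives, 13 left it uncalled. Without MIRI replicate 3, the MIRI library that held its reads, the adjusted p = 0.0352. That choice leaves MIRI at 0, so a smaller p was bound to follow and nothing is drawn from it. Itgam, the alpha M chain of macrophages and neutrophils, stood at 0, 0 and 12.8 CPM in Sham, 27.1, 0 and 50.4 in MIRI, 29.2, 46, 11.1, 56.2 and 55.1 with Compound C and 90.1, 87.2, 131, 81.9 and 26.8 with AICAR (log2 fold change 1.78, SE 0.68, adjusted p = 0.551). The summed leukocyte markers were 1735 to 2999 CPM in Sham, 2737 to 4209 in MIRI, 2488 to 3079 in MIRI+Compound C and 3149 to 4094 in MIRI+AICAR, so that they were higher in every MIRI+AICAR library than in every Sham or MIRI+Compound C library; their part in the Itgam values was not tested. Adam19 stood at 17.2, 74.8 and 95.6 CPM in Sham, 81.2, 47.9 and 25.2 in MIRI, 51.1, 86.2, 88.6, 95.5 and 55.1 with Compound C and 101, 163, 126, 47.4 and 139 with AICAR (log2 fold change 1.11, SE 0.45, adjusted p = 0.591). On the lower side came Ltbp1 (log2 fold change -0.43, SE 0.18, adjusted p = 0.591), Adam10 (log2 fold change -0.85, SE 0.41, adjusted p = 0.734), Itga6, a laminin receptor chain (log2 fold change -1.08, SE 0.60, adjusted p = 0.781), and Adamts9 (log2 fold change -0.19, SE 0.20, adjusted p = 0.965). Without MIRI replicate 1 the log2 fold changes of Ltbp1 and Adam10 turned to 0.04 and 0.47.

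AICAR against Compound C sets the AMPK activator against the AMPK inhibitor in 5 libraries each, and neither library group contains MIRI replicate 1. That library still enters the fit of all 16 libraries, from which the spread of each gene is taken. Adamts19 and Itga8 were called, both higher with AICAR, which is 2 of 52 beside 1.95% of all host genes. Adamts19 was found in all 5 MIRI+AICAR libraries at 32.2 to 78.8 CPM and listed at 0 in all 5 with Compound C (adjusted p = 0.00114). Itga8, an integrin chain that pairs with beta 1 and binds nephronectin, stood at 34.4, 149.6 and 44.6 CPM in Sham, 176, 132 and 0 in MIRI, 21.9, 34.5, 27.7, 0 and 27.5 with Compound C and 186, 105, 374, 56 and 85.8 with AICAR. The lowest MIRI+AICAR library, 56.0 CPM, was above the highest MIRI+Compound C library, 34.5 CPM (log2 fold change 2.83, SE 0.62, adjusted p = 0.00896). Without MIRI+AICAR replicate 3, at 374 CPM, the log2 fold change was 2.23 and the adjusted p = 0.0979. Against MIRI, Itga8 was lower with Compound C without passing the threshold (log2 fold change -2.23, SE 0.74, adjusted p = 0.230), and MIRI itself ran from 0 to 176 CPM.

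The 262 reads of Itga8 lay on 11 circles. The most abundant, exons 7 to 11 (the fourth sequence above), held 0, 8 and 0 reads in Sham, 4, 9 and 0 in MIRI, 0, 4, 3, 0 and 0 with Compound C and 8, 10, 21, 5 and 5 with AICAR. The circles of exons 20 to 24 (chr2:12160322-12189620) and of exons 21 to 23 (chr2:12174153-12182751), of which the second lies inside the first, were listed at 0 in all 5 MIRI+Compound C libraries. In MIRI+AICAR they held 0, 6, 17, 0 and 5 reads and 6, 0, 13, 3 and 0 reads. As single circRNAs, none of the 3 circles was called (adjusted p = 0.256, 0.189 and 0.282).

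Groups of MIRI+AICAR and MIRI+Compound C did not overlap for Adamts19, Col24a1, Itga8 and Ltbp1 on the higher side (2.57% of all host genes) and for Adamts9 and Sparc on the lower side (2.24% of all). Ltbp1 stood at 770.1 to 887 CPM with AICAR against 570.3 to 641 CPM with Compound C (log2 fold change 0.46, SE 0.16, adjusted p = 0.163, edgeR). Of 17 alternatives, 14 left it uncalled and 3 called it. Among those 3, leaving out MIRI replicate 1 and MIRI+AICAR replicate 5 gave a log2 fold change of 0.47 and an adjusted p = 0.0339. Col24a1 stood at 64.6 to 169 CPM against 0 to 49.8 CPM (log2 fold change 1.86, SE 0.59, adjusted p = 0.115). Sparc stood at 17.2 to 22.5 CPM against 27.7 to 118 CPM (log2 fold change -1.86, SE 0.55, adjusted p = 0.0832), and Adamts9 at 236 to 331 CPM against 338 to 430.4 CPM (log2 fold change -0.38, SE 0.17, adjusted p = 0.360). Adam10 overlapped between these groups (log2 fold change 1.04, SE 0.41, adjusted p = 0.240); it was called higher without MIRI replicate 1 and MIRI+AICAR replicate 5, unless the circle of exons 2 to 4 was taken out as well. Lamc1 (log2 fold change -0.41, SE 0.19, adjusted p = 0.399) and Ltbp4 (log2 fold change -0.44, SE 0.23, adjusted p = 0.488) followed on the lower side.

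**Figure D4:**
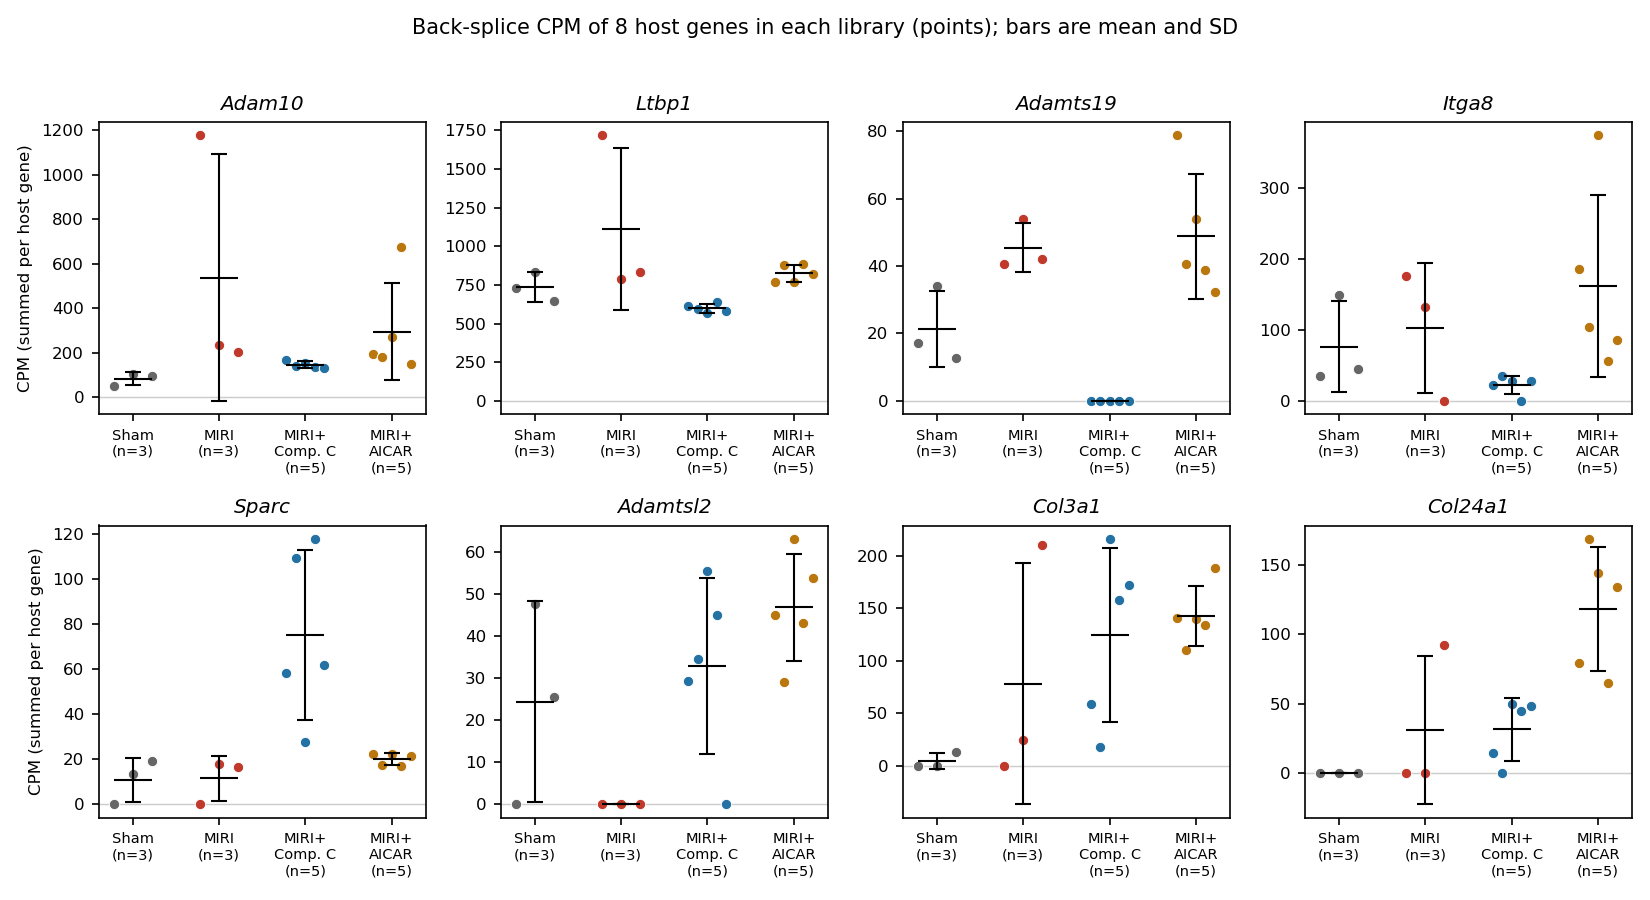
CPM of Adam10, Ltbp1, Adamts19, Itga8, Sparc, Adamtsl2, Col3a1 and Col24a1 in each of the 4 groups, with a scale of its own for each gene: points are libraries, and the bars are the group mean and its SD. The Adamts19 points of MIRI+Compound C all lie at 0, the Sparc points of MIRI+Compound C lie above those of MIRI and of MIRI+AICAR, and single high points stand in MIRI for Adam10 and Ltbp1.

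Over the 52 genes, the median log2 fold change was 0.07 for MIRI against Sham (29 above 0, 23 below), 0.08 for MIRI+Compound C against MIRI (28 above, 24 below) and 0.19 for MIRI+AICAR against MIRI+Compound C (34 above, 18 below). The medians of all 3699 host genes were 0.02, 0.0043 and 0.02. At an unadjusted p under 0.05, MIRI against Sham gave 7 of the 52 genes (13.5%, against 9.03% of all), MIRI+Compound C against MIRI 6 (11.5%, against 9.00% of all) and MIRI+AICAR against MIRI+Compound C 12 (23.1%, against 11.9% of all). The comparisons share libraries, so these counts are not independent of each other. By role, log2 fold changes for MIRI+AICAR against MIRI were above 0 for 8 of 9 ADAMTS proteases and 6 of 7 fibrillar collagens. They were below 0 for all 3 latent TGF-beta binding proteins, where 51.8% of all host genes were above 0. Of these 3, Ltbp1 turned to 0.04 without MIRI replicate 1, and Ltbp2 had a count in 1 of 3 MIRI libraries. For MIRI against Sham, all 5 laminin chains were below 0, where 51.7% of all host genes were above 0. These roles are named here because of their values. No gene of these groups was called in either comparison, and all 3 of the MIRI libraries enter both with opposite sign.

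**Figure D5:**
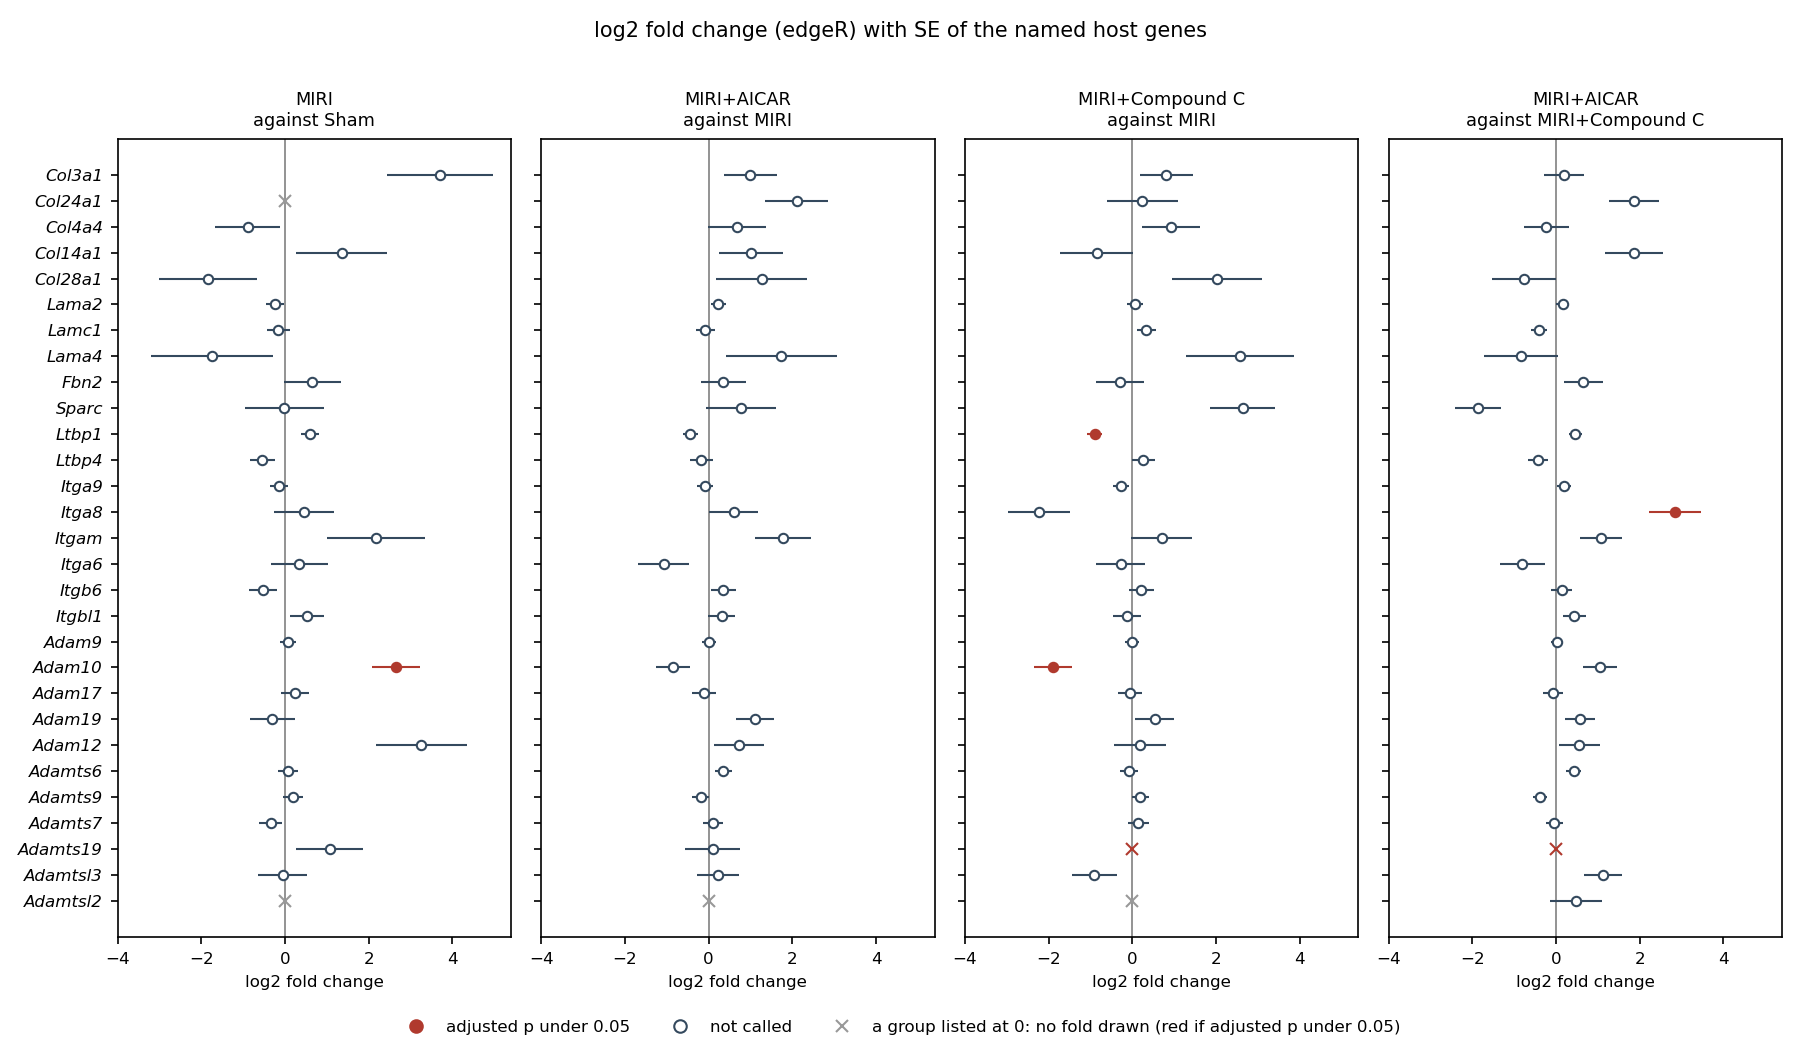
Log2 fold changes with standard errors for the named genes in the 4 comparisons, 1 panel each, with filled red points where the adjusted p is under 0.05 and open points elsewhere. A cross, with no fold, stands where a group is at 0 in all its libraries (red for Adamts19, which was called in both comparisons with MIRI+Compound C); the standard errors of the abundant genes are below those of the rarer ones, such as 0.16 for Lama2 and 0.59 for Col24a1 in MIRI+AICAR against MIRI+Compound C.

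Single circRNAs were tested in a fit of their own, 81 of these genes' circRNAs (from 36 genes) among 7917, whose CPM scale differs from that of the host sums. None of the 81 was called by edgeR in any comparison. DESeq2 called none either, but it gave no adjusted p to 63 of the 81 for MIRI+Compound C against MIRI and to 46 for MIRI+AICAR against MIRI+Compound C, so those could not be called by it. The shares of all 7917 called were 0.0253% for MIRI against Sham, 0.0253% for MIRI+AICAR against MIRI, 0.0884% for MIRI+Compound C against MIRI and 0.556% for MIRI+AICAR against MIRI+Compound C. At an unadjusted p under 0.05 there were 5 of 81 (6.17%, against 6.82% of all), 2 (2.47%, against 4.90%), 9 (11.1%, against 6.47%) and 7 (8.64%, against 8.51%), in the same order. The Adam10 circle of exons 2 to 4 was not among the 81, since it had reads in too few libraries to pass the filter.

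The smallest p for MIRI against Sham belonged to the Adam12 circle of exons 7 to 11 (chr7:133961084-133975528), with 0, 0 and 0 reads in Sham, 0, 8 and 5 in MIRI, 2, 4, 7, 2 and 9 with Compound C and 7, 8, 8, 12 and 9 with AICAR (adjusted p = 0.360). The Adamtsl2 circle of exons 9 to 12 had the smallest p for MIRI+AICAR against MIRI (adjusted p = 0.335) and for MIRI+Compound C against MIRI (adjusted p = 0.229). The Adamts10 circle of exons 4 to 5 held 5, 3 and 3 reads in Sham, 0, 2 and 0 in MIRI, 6, 3, 3, 7 and 4 with Compound C and 5, 0, 7, 7 and 3 with AICAR. Its exons sum to 375 bases on the transcript used, against a listed spliced length of 456. A Col5a3 circle of exons 43 to 44 (chr9:20782487-20782732) was listed at 0 in the 3 MIRI libraries and held 6 and 2 reads in Sham replicates 2 and 3. The abundant circle of Adam9, 926 of 1049 reads of that gene, held 38, 51 and 43 reads in Sham, 58, 61 and 39 in MIRI, 43, 56, 68, 66 and 55 with Compound C and 52, 60, 90, 85 and 61 with AICAR (log2 fold change 0.21, SE 0.21, adjusted p = 0.954 for MIRI against Sham). The Ltbp4 circle of exons 26 to 27 (chr7:27310181-27310787) was listed at 0 in MIRI+AICAR replicate 2 and held 31 to 52 reads in the other 4.

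The circles shared features that the choice of genes did not use. Of the 657 circRNAs with a count, 637 were exonic, 19 spanned exon and intron and 1 was intronic. Their median spliced length was 519 bases, against 554 for all circRNAs with a count and a host gene. The genes gave a median of 5 circles each, against 3 for all host genes with a count, and the most abundant circle held a median of 55.4% of a gene's reads, against 75%. A count in 1 library alone was found for 45.5% of the circRNAs (36.2% of all), and a count in all 16 libraries for 27 of them, 4.11% (9.66% of all).

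For 581 circRNAs the exons could be numbered on 1 transcript. Of these, 53 (9.12%) began at exon 2. The summed annotated exons matched the listed spliced length for 532 of the 581 (91.6%). Whether or not it matched, that sum was divisible by 3 for 310 of the 581 (53.4%). That share differed widely by role. It was 86 of 92 (93.5%) in fibrillar collagens and 9 of 10 in fibrillins, whose repeats are encoded by exons that keep the reading frame, and 30 of 44 (68.2%) in latent TGF-beta binding proteins. It was 36.7% in laminin chains, 36.7% in integrin alpha chains, 44.4% in ADAMTS proteases and 37.0% in ADAM proteases. The introns beside fibrillar collagen circles were also short, with medians of 1000 bases upstream and 795 bases downstream, against 5901 and 6103 bases for all of these circRNAs.

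Col3a1 gave the largest number of circles, 54, of which 44 were found in 1 library. The number of different Col3a1 circles with a count was 1 in Sham, 8 in MIRI, 22 with Compound C and 32 with AICAR; the last 2 groups have 5 libraries and the others 3. Only 27 of the 54 had both ends on annotated exon boundaries. Over all exonic circRNAs of these genes 91.4% had both ends on such boundaries, and over all exonic circRNAs with a count 93.5%. Of the 55 that did not, Col3a1 gave 27, Itgb1bp2 9, Col1a1 4 and Sparc 3. For Itgb1bp2, whose protein binds the beta 1 integrin tail in muscle, 9 of its circles reached outside the annotated gene, so these counts may belong to more than the named gene.

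Few other genes of the same pathways were called. Of 35 further matrix protein genes 12 were tested, and 1, Smoc1, a calcium-binding basement membrane protein related to Sparc, was called: it was higher with AICAR than with Compound C (log2 fold change 1.83, SE 0.42, adjusted p = 0.0153), where 1.95% of all host genes were called, with means of 43.1 ± 32.1 CPM (SD, n = 3) in Sham, 99.2 ± 61.6 (n = 3) in MIRI, 28.8 ± 11.2 (n = 5) with Compound C and 103 ± 32.5 (n = 5) with AICAR. The median log2 fold change of the 12 was 0.16 for MIRI against Sham, 0.27 for MIRI+AICAR against MIRI, -0.19 for MIRI+Compound C against MIRI and 0.51 for MIRI+AICAR against MIRI+Compound C. Of 31 genes of matrix processing and crosslinking 4 were tested, of 30 partners of integrins 15, and of 19 genes of TGF-beta signalling 11. None of these 30 genes was called by edgeR in any of the 4 comparisons; at an unadjusted p under 0.05, the matrix proteins gave 2, 2, 3 and 4 of 12 in the order above, the integrin partners 2, 3, 2 and 2 of 15, matrix processing 2, 0, 1 and 2 of 4, and TGF-beta signalling 0, 1, 0 and 0 of 11, against 9.03, 6.76, 9.00 and 11.9% of all host genes. Among the TGF-beta genes, the medians lay between -0.01 and 0.10.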

How the data were processed

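Back-splice reads of circRNAs were counted in 16 mouse heart libraries. Per the labels' protocols, total RNA was freed of DNA and ribosomal RNA, RNase R removed linear RNA, and strand-marked (dUTP) libraries were sequenced as DNA nanoballs. The deposited values are whole-number counts per circRNA, made by the authors with CIRI per the file headers; the sources used here do not give its version, the aligner or the read minimum. The submitters' processing notes name mm9, but 88.9% of exonic starts in the table lie on GENCODE M21 exon boundaries on GRCm38, and 0.350% after a move by 1 base, so coordinates are given on GRCm38. RNase R and amplification without molecular identifiers mean that a read is not a molecule, and digestion can differ between libraries.

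Counts were summed per gene symbol. Host sums (3699 tested, with 52 of the 91 genes) and single circRNAs (7917 tested, with 81) were each fitted in edgeR 4.0.16 (R 4.3.3): filterByExpr (min.count 5, min.total.count 15), TMM, 1 quasi-likelihood fit of all 16 libraries with group means only, Benjamini-Hochberg adjustment over all features, and calls at an adjusted p under 0.05. The procedure was also run on simulated data with 200 changed features, and nothing about the calls is drawn from that run. Alternatives were DESeq2 1.42.0, no filter, a minimum count of 10, fits of the 2 groups alone, a replicate block, other shares, and leaving out libraries. No pair of replicates was as close as sampling noise (lowest chi-square per degree of freedom 1.82), and 0 count columns matched no sample. The members and lists were chosen with earlier results of these data known, including the markers Med12l and Itgb3. Genes named with values were the 12 most abundant, those called, the 4 with the smallest p in each direction of a comparison and the most abundant of each role; the few named beyond this are marked in the text.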

Additional observations from a re-analysis of the deposited data

Results flagged for a closer look

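In 60 groups of 5 libraries (each named gene and the summed share in MIRI+AICAR or MIRI+Compound C), the highest or lowest library was set against the rest by its gap, divided by the range of the group. Chance marks about 1 group in 20, and 2 were marked, both for a high library of MIRI+AICAR. Adam10 stood at 676 CPM in replicate 4, far from the next, 270.2 CPM; 117 of its 157 reads there were on the circle of exons 2 to 4, and without that circle the library stood at 172 CPM. Itgb6 stood at 293 CPM in replicate 3, with the next at 211 CPM.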

How the results depend on the processing

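Of the values of 32 single-gene results under alternatives, 415 kept their direction and their side of the threshold, 16 passed it, 30 no longer did and 5 turned. Those that turned all belong to MIRI+AICAR against MIRI: Ltbp1 (-0.63 to 0.044 with a library left out, positive without MIRI replicate 1; 0.034 without it and MIRI+AICAR replicate 5), Adam10 (-1.43 to 0.47, likewise; 0.62) and Adamts9 (-0.29 to 0.0042, positive without MIRI replicate 3). Called genes for MIRI against Sham numbered 1; the count was 0 with DESeq2, with a minimum count of 10, with the 2 groups alone, without both libraries that stand apart, and without these and the Adam10 circle, 3 with no filter, and 0 to 1 with a library left out. For MIRI+AICAR against MIRI it was 3 with no filter and 0 to 1 with a library left out. For MIRI+Compound C against MIRI, 3 became 5 with no filter, 1 with a minimum count of 10, 0 with the 2 groups alone, 1 without both libraries, 1 without these and the Adam10 circle, and 1 to 5 with a library left out. For MIRI+AICAR against MIRI+Compound C, 2 became 1 with DESeq2 (which gave Adamts19 no adjusted p), 6 with no filter, 4 with the 2 groups alone, 4 without both libraries, and 1 to 2 with a library left out. Single circRNAs went from 0 to 1, 1, 4 and 2 with no filter, and to 1 for MIRI+Compound C against MIRI without MIRI replicate 2. DESeq2 gave no adjusted p to 5, 0, 16 and 28 of the 52 genes, with the comparisons in this order. The causes were not tested. Shares in Sham, MIRI, MIRI+Compound C and MIRI+AICAR were 0.438, 0.466, 0.435 and 0.480% of tested circRNAs, and 0.445, 0.491, 0.476 and 0.553% without the gene with the highest count. Whether replicate numbers pair the libraries could not be decided. Correlations of deviations were -0.0435 to 0.0809 for equal numbers and -0.0975 to 0.0797 for others, and values this small do not exclude a pairing. Between Sham and MIRI they were 0.0449 to 0.0809 for equal numbers and -0.0487 to -0.0220 for others. With the replicate block, edgeR called 1 gene (Ltbp1) for MIRI+Compound C against MIRI (Adamts19 had an adjusted p of 0.0650, Adam10 of 0.0588). The other counts moved by less than 1.5 times. With a median of 116 reads per tested gene, small differences were not detectable.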
